A study of Mus musculus with 2 samples.

Results

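The Msx, Alx, Prrx, Shox and Pitx genes encode homeodomain transcription factors of the face and limb, and 8 of them were followed here by name, 8 of the 43346 genes measured. They were Msx1 and Msx2, the paired-type genes Alx1, Alx4, Prrx1, Prrx2 and Shox2, and the bicoid-type gene Pitx1. They were taken by name and family, with no threshold on a measured value. The study sequenced total RNA of the facial prominence, the embryonic tissue that forms the jaws, nose and palate, at 15.5 days of mouse development. It had 1 group, B6NCrl embryos of both sexes with no treatment or altered allele named, in 2 libraries that the labels call biological replicates and that carry the same donor label. How the embryos of the pools were related is not stated, so the spread between the libraries may be partly technical. Replicate 1 came from 78 pooled embryos and replicate 2 from 62. With no second group there was no contrast to test, and values are levels, given in each library as TPM, a gene's share of all transcripts after correction for transcript length.

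A homeodomain is a DNA-binding fold encoded by the homeobox, and its recognition helix lies in the major groove. Msx1 and Msx2 are repressors whose transcription follows BMP signalling in facial mesenchyme, tooth germs and skull. The Alx genes act in neural crest mesenchyme of the midface and skull vault, and the Prrx genes act in the mesenchyme of the jaws and limbs. Shox2 is needed in the anterior palate, the limb and the heart's pacemaker. Pitx1 is known for its part in the mandible, the hindlimb and the pituitary.

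The homeobox is shown for 7 of the genes because it is what the family shares, and because reads from paralogues could be confused there. Each sequence comes from the GENCODE M21 transcript on GRCm38, runs 5′ to 3′ on the sense strand and has 180 bases, and capitals mark codon 50 of the homeodomain, the codon known to set much of the choice of binding site. CAG and CAA are glutamine codons and AAG is a lysine codon.
Msx2: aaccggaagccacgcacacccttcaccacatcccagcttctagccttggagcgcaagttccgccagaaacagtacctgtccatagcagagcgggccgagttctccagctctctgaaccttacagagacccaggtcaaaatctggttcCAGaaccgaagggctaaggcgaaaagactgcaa
Alx1: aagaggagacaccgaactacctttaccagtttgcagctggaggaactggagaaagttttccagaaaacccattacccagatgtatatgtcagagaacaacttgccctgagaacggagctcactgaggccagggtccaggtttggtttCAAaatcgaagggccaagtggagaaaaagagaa
Alx4: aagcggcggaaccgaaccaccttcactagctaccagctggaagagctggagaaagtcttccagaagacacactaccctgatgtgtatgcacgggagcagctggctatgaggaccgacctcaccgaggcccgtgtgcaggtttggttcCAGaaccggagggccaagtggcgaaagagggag
Prrx1: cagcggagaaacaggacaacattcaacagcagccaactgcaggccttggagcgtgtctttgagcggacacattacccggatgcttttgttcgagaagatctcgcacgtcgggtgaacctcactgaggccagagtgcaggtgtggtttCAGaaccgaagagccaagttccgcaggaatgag
Prrx2: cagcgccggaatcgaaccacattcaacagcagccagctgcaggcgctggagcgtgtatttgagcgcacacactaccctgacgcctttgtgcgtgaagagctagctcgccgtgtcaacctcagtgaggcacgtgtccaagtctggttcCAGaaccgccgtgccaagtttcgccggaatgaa
Shox2: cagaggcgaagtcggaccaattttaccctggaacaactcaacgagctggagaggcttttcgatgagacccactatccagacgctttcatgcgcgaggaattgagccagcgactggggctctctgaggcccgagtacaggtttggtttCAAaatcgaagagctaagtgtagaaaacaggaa
Pitx1: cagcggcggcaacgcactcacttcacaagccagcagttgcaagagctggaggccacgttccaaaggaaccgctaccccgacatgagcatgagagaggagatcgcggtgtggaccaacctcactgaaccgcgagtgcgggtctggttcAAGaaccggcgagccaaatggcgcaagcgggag

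Among the sequences shown, codon 50 was CAG or CAA in all but Pitx1, which had AAG. In Msx2 the homeobox lay wholly in exon 2, at chr13:53468370-53468549 on the minus strand. In the Alx, Prrx, Shox2 and Pitx1 genes an intron split it between exons 2 and 3, with 138 bases before the intron and 42 after it. On the minus strand these blocks were chr10:103025135-103025272 and chr10:103022264-103022305 in Alx1, chr1:163261840-163261977 and chr1:163257901-163257942 in Prrx1, chr3:66978186-66978323 and chr3:66975869-66975910 in Shox2, and chr13:55828440-55828577 and chr13:55826570-55826611 in Pitx1. On the plus strand they were chr2:93668528-93668665 and chr2:93675296-93675337 in Alx4, and chr2:30878454-30878591 and chr2:30879492-30879533 in Prrx2.

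Paralogues were alike in this stretch but not over the length of a read. Prrx1 and Prrx2 had the same base at 142 of 180 positions (78.9%) and Alx1 and Alx4 at 138 (76.7%). The longest run of identical bases between their transcripts was 19 bases for each of these pairs. Over all pairs of the 8 genes the longest was 47 bases, between Msx2 and Prrx1, so no window of 100 bases was shared by any pair of them.

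All 8 genes were expressed. Each passed 1 TPM in both libraries, which 65.4% of the 21474 coding genes did, and their median was 51.6 TPM where that of coding genes was 6.14 TPM. In the order of mean TPM they ran Msx1, Prrx1, Alx1, Prrx2, Pitx1, Shox2, Msx2 and Alx4, and this order was the same in both libraries. It rests on gene TPM over all transcript models, noncoding ones included, and was not taken over coding models alone. The highest stood 12.6-fold above the lowest in replicate 1 and 13.5-fold in replicate 2. In pooled tissue, fewer cells that express a gene and less RNA in each cell cannot be told apart.

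Msx1, a repressor needed for palate and tooth, read 145 TPM in replicate 1 and 158 TPM in replicate 2 (152 ± 9.16 TPM, SD, n = 2). It lay above 95.7% of coding genes, on 6565 and 7457 expected counts. Its paralogue Msx2, which acts in skull and ectodermal organs, read 15.5 and 18.0 TPM (16.8 ± 1.77 TPM, n = 2). The Msx1 values were thus 9.36-fold and 8.78-fold those of Msx2 within the same library, a log2 difference of 3.18 ± 0.07 (n = 2). Msx1 spans chr5:37820485-37824583 and Msx2 chr13:53466884-53473074, both on the minus strand.

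Alx1, whose loss disturbs the midface, read 65.6 and 77.6 TPM (71.6 ± 8.49 TPM, n = 2). Alx4, which is needed for the closure of the skull vault, read 11.5 and 11.7 TPM (11.6 ± 0.177 TPM, n = 2) and was the lowest of the 8 genes in both libraries. Alx1 exceeded Alx4 5.71-fold in replicate 1 and 6.61-fold in replicate 2, a log2 difference of 2.62 ± 0.15 (n = 2). The counts were closer, 3890 and 4803 for Alx1 against 1479 and 1569 for Alx4, since the Alx4 transcripts averaged 5323 bases in replicate 1 and those of Alx1 2506 bases. Alx1 spans chr10:102998707-103030215 on the minus strand and Alx4 chr2:93642384-93681339 on the plus strand.

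The Prrx genes, which act together in jaw mesenchyme, were the most even pair. Prrx1 read 79.0 and 86.1 TPM (82.6 ± 5.06 TPM, n = 2) and Prrx2 62.6 and 70.2 TPM (66.4 ± 5.37 TPM, n = 2). Prrx1 exceeded Prrx2 1.26-fold and 1.23-fold, a log2 difference of 0.31 ± 0.03 (n = 2). Both replicates thus put Prrx1 above Prrx2, and in neither did the deposited credibility bounds of the pair overlap. Prrx1 spans chr1:163245119-163313710 on the minus strand and Prrx2 chr2:30834972-30881251 on the plus strand.

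Pitx1 and Shox2 held the middle of the order. Pitx1 read 37.5 and 36.1 TPM (36.8 ± 1.03 TPM, n = 2), and among the 8 genes it alone had its lower deposited TPM in replicate 2. Its credibility bounds in the 2 libraries overlapped. Spike-in RNA took 6.42% of all TPM in replicate 1 and 10.1% in replicate 2, which lowers the deposited values of replicate 2 more. Shox2 read 21.1 and 23.7 TPM (22.4 ± 1.78 TPM, n = 2). Pitx1 spans chr13:55825051-55836192 and Shox2 chr3:66971727-66981771, both on the minus strand.

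Of the 7 pairs of neighbours in the order, 6 had replicate values that did not overlap. The exception was Alx1 and Prrx2, where the lower Alx1 value of 65.6 TPM lay under the higher Prrx2 value of 70.2 TPM. Their credibility bounds overlapped in replicate 1, from 62.2 to 66.2 TPM for Alx1 and from 56.2 to 66.4 TPM for Prrx2. In replicate 2 the lower bound of Alx1 at 73.8157 TPM only just cleared the upper bound of Prrx2 at 73.8036 TPM. Prrx1 and Alx1 were also close, with 79.0 TPM as the lower Prrx1 value and 77.6 TPM as the higher Alx1 value, and no test of the order was made.

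**Figure D1:**
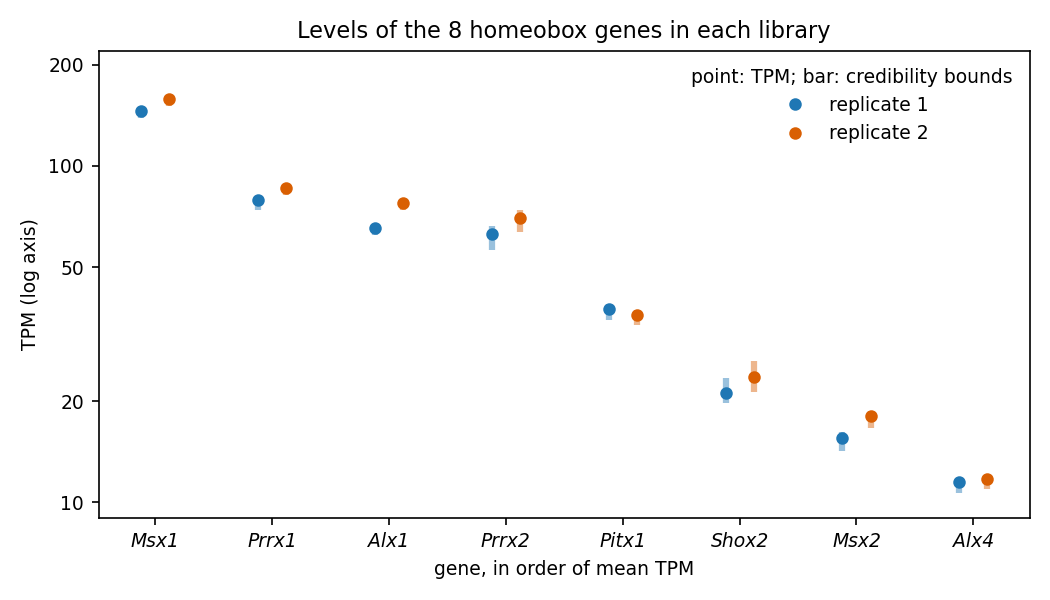
TPM (log axis) of the 8 genes in replicate 1 (blue) and replicate 2 (orange), with the deposited credibility bounds as bars, in order of mean TPM. Msx1 leads at 145 and 158 TPM, Alx4 is last at 11.5 and 11.7 TPM, and the values of Alx1 and Prrx2 overlap.

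Among 212 homeobox genes listed for comparison, 7 of the 8 genes stood among the 30 highest, and Alx4 ranked 42nd. Of that list 101 genes (47.6%) passed 1 TPM in both libraries, and its median was 0.855 TPM. Msx1 ranked 1st, Prrx1 2nd, Alx1 3rd and Prrx2 5th, so 4 of the 10 highest were among the 8, where 4.72% of the list is in the 10 highest by definition. These ranks use gene TPM over all transcript models, noncoding ones included. Prrx2 transcripts with the whole homeobox read 35.5 and 40.2 TPM, where Dlx5, 10th in the list, read 37.3 and 43.6 TPM as a gene. The list was not ranked by coding models alone, so the place of Prrx2 depends on this choice. Pitx1, Shox2 and Msx2 lay within the 30 highest as well. The 8 genes made up 3.77% of the list and held 25.6% of its summed TPM in replicate 1 and 27.5% in replicate 2.

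The 10 highest also held Cux1, Tgif1, Zeb2, Tgif2 and Dlx5, all of them above Pitx1 in mean TPM. Cux1, a gene of the CUT class, stood at 59.4 ± 2.07 TPM, the TALE-class repressor genes Tgif1 and Tgif2 57.5 ± 1.45 and 41.0 ± 1.17 TPM, and Zeb2, a zinc-finger homeobox gene, 57.05 ± 1.39 TPM (n = 2). Dlx5, which patterns the lower jaw, stood at 40.5 ± 4.41 TPM (n = 2).

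**Figure D2:**
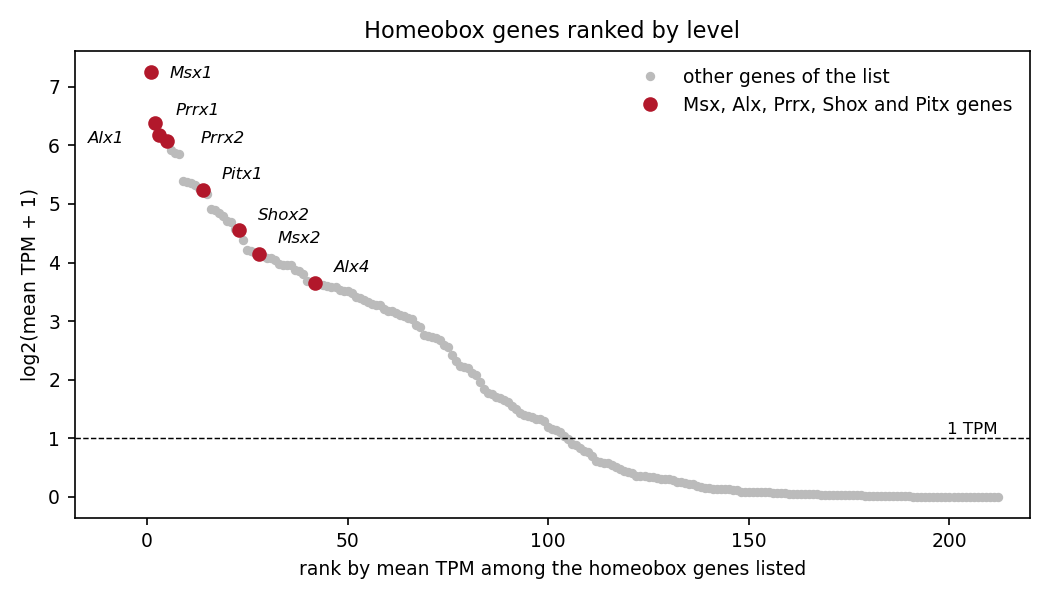
Mean TPM over both libraries, as log2(TPM + 1), of 212 homeobox genes by rank, with the 8 genes in red and the others in grey. Msx1, Prrx1, Alx1 and Prrx2 hold ranks 1, 2, 3 and 5, and the dashed line marks 1 TPM.

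Close relatives of the 8 genes were detected in part. Of 15 further paired-type, bicoid-type and Msx genes, 8 passed 1 TPM in both libraries, and Msx3 had no count in either. Pitx3, a lens and midbrain gene, read 9.82 and 8.16 TPM. Gsc, a gene of the first arch and middle ear, read 11.5 and 10.9 TPM. The head genes Otx1 and Otx2 read 7.49 and 9.96 TPM and 5.79 and 7.39 TPM. Uncx, a gene of the axial skeleton and olfactory epithelium, read 4.19 and 8.69 TPM. Prrxl1, a gene of sensory neurons, read 1.74 and 1.26 TPM.

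The ratio of replicate 2 to replicate 1 was taken from expected counts after TMM scaling, which sets the bulk of genes to no change. None of the 8 genes passed 1.5-fold, which 9.08% of 18318 genes did. That share includes genes with as few as 10 counts, whose ratios spread more. Msx2 had the fewest counts of the 8, at 899 and 1088. For coding genes with counts like these the 95th percentile was 0.34 on the log2 scale, itself under 1.5-fold. Passing none thus does not set the 8 genes apart. Alx1 had the highest log2 ratio of the 8 at 0.24, with a 95% interval of 0.18 to 0.31 for counting error alone. Msx2 followed at 0.22 (0.09 to 0.34) and Prrx1 at 0.20 (0.16 to 0.24). These 3 intervals and those of Prrx2 at 0.16 (0.06 to 0.27) and Msx1 at 0.12 (0.08 to 0.17) lay above 0.

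The intervals of the other 3 genes included 0. Shox2 stood at 0.05 (-0.06 to 0.16), Alx4 at 0.03 (-0.08 to 0.13) and Pitx1 at -0.04 (-0.13 to 0.04). In all, 7 of the 8 genes were above 0, where 50.1% of the 18318 genes were. The median size of the ratio was 0.14 on the log2 scale for the 8 genes, 0.10 for coding genes and 0.12 for all genes. For coding genes with counts like theirs, the 95th percentile was 0.14 for Alx1 and 0.15 for Prrx1 and Msx1, so Alx1 and Prrx1 lay beyond it and Msx1 within it.

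**Figure D3:**
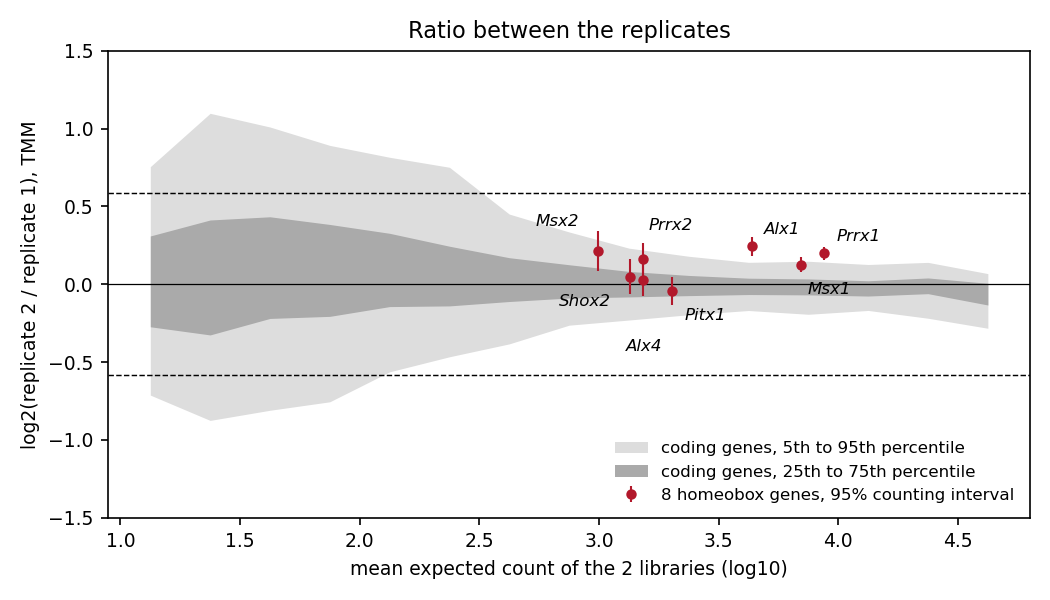
Log2 ratio of replicate 2 to replicate 1 against the mean expected count (log10), with 95% counting intervals for the 8 genes in red and the percentile bands of coding genes in grey. Dashed lines mark 1.5-fold, Alx1 and Prrx1 lie above the wider band and Pitx1 is the only point below 0.

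Scaled to the added spike-in RNA, the picture moved as a whole. Spike-ins took 2.91% of the counts in replicate 1 and 4.59% in replicate 2, and scaling to them put the median of all 18318 genes at -0.65. The 8 genes then ran from -0.70 to -0.41, so all of them were below 0, and 3 of the 8 were past 1.5-fold downward, where 65.6% of genes were past it in either direction. Against the median of all genes, 7 of the 8 were higher in replicate 2, with Pitx1 as the exception. This held under TMM, DESeq2 size factors, total counts and spike-ins. A change of scaling shifts every gene and the median nearly alike, so their agreement is no further support.

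Cell type markers also moved between the pools. All 10 cartilage markers were higher in replicate 2, with a median log2 ratio of 0.62 and a summed level of 585 against 926 TPM. All 8 muscle markers were lower in replicate 2, with a median of -0.44 and a summed level of 2610 against 1951 TPM. The 8 mesenchyme markers summed to 8934 and 8409 TPM with a median ratio of -0.05. The part of these shifts in the ratios of the 8 genes was not tested.

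Marker lists were read beside the tissue label. Detected here means 1 TPM or more in both libraries, which 65.4% of coding genes reached. Detection of the first 5 lists does not tell the face from other parts of the embryo. All markers of mesenchyme (8), cartilage (10), bone (8), epithelium (8) and muscle (8) were detected, led by Col1a1, Col2a1, Ibsp, Krt14 and Acta1. Of 7 tooth markers 5 were detected, Lhx8 highest at 25.2 ± 1.57 TPM, while Amelx read 0.06 TPM in both libraries and Dspp 0.03 and 0 TPM. Several of the 8 genes are also expressed in limb, pituitary, heart or sensory neurons. Of 8 limb markers 2 were detected, Hand2 at 3.23 and 1.94 TPM and Tbx4 at 1.67 and 1.43 TPM. The summed level of the 8 limb markers was 5.95 and 3.97 TPM, and Hoxd13, Hoxa11 and Hoxd11 were at 0 in both libraries. Of 7 pituitary markers 2 were detected, summing to 4.06 and 6.63 TPM, with Pomc highest. Of 6 heart markers 3 were detected, summing to 18.9 and 15.5 TPM, with Nkx2-5 highest, and of 8 sensory neuron markers 6, summing to 47.4 and 49.8 TPM, with Ntrk2 highest.

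The transcript models differed more between genes than between replicates. For 6 of the 8 genes 1 transcript held at least 50% of the gene's transcripts in both libraries, as for 71.4% of the 10081 coding genes that passed 1 TPM in both libraries and had more than 1 transcript model, and Prrx1 and Prrx2 were the others. These percentages are the authors' estimates from reads that models share, and they weigh a short transcript more than its count does. Transcripts with the whole homeobox made up between 90.3% and 100% of 7 of the genes, and 56.7% and 57.3% of Prrx2.

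Prrx1 was divided among 3 main models. Prrx1-201, with 735 coding bases in 4 exons, held 42.12% and 38.96% of the transcripts (33.3 and 33.6 TPM). Prrx1-204, which reads through the splice site after exon 3 and stops soon after, held 25% and 28.4% (19.7 and 24.4 TPM). Prrx1-205, annotated as noncoding and only 1335 bases long, held 31.0% and 26.8% (24.5 and 23.1 TPM), but 9.38% and 7.70% of the gene's counts. The coding models differ in the C-terminal part of the protein, which is known to affect what Prrx1 does at its targets, while the homeobox is the same in each. The coding ends of these models are shown with the stop codon in capitals, on the minus strand of GRCm38. They are the last exon of Prrx1-201 (chr1:163248258-163248396), the extra exon of Prrx1-202 (chr1:163253994-163254048) and the final coding bases of Prrx1-204 (chr1:163257757-163257789), of which all but the last 4 belong to exon 3 and are coded in the others too.
Prrx1-201: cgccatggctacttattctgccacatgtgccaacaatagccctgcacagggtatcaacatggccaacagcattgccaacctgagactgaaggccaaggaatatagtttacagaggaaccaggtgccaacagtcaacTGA
Prrx1-202: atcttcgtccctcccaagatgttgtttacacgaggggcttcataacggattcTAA
Prrx1-204: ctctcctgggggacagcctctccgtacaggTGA

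The extra exon, 72 bases long, is spliced between exon 3 and the last exon in Prrx1-202 and Prrx1-205. Prrx1-204 reads on to chr1:163252866 and so holds the same bases unspliced. Reads inside the exon are thus shared with that model too. How the estimate divided the exon between Prrx1-202 and Prrx1-205 was unsteady. Prrx1-202, named here for this exon although it stayed under 5%, held 0.53% of the gene in replicate 1 and 4.70% in replicate 2, with credibility bounds of 0.00132 to 3.21 TPM and 0.729 to 5.38 TPM that overlapped. Their sum was steady, at 31.6% and 31.5%. Prrx1-205 is short, and by counts the sum was 10.0% and 13.0%. Among transcripts that contain the last exon, those with the extra exon held 42.8% and 44.7%.

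The level and the count of Prrx1 did not move alike. Its TPM was 1.09-fold higher in replicate 2 while its scaled count was 1.15-fold higher, and the mean length the authors gave its transcripts went from 4190 to 4401 bases. For Shox2 the mean length went from 2593 to 2403 bases, the TPM ratio was 1.12 and the count ratio 1.03. Among the other 6 genes the change was largest in bases for Alx4, from 5323 to 5299.7, and largest relative to length for Pitx1, from 2275 to 2293 bases.

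Prrx2 was the gene with the largest share outside coding models. Prrx2-201, with 741 coding bases, held 39.2% and 37.1% (24.6 and 26.1 TPM), and Prrx2-202 held 17.5% and 20.1% (10.9 and 14.1 TPM). Prrx2-203 and Prrx2-204, short models annotated as retained introns, held 24.1% and 25.9%, and 19.2% and 16.9%. Together the latter took 43.3% and 42.7% of transcripts, but 23.5% and 23.7% of counts. Neither holds the whole homeobox, and Prrx2-203 keeps its second block and Prrx2-204 its first.

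Prrx2-202 begins at a first exon 10087 bases upstream of that of Prrx2-201 and replaces its N-terminal coding part. It held 30.8% and 35.1% of the coding transcripts, and its credibility bounds of 6.002 to 14.8 TPM and 9.34 to 17.6 TPM overlapped. The coding bases of both first exons are shown because they are what separates the 2 proteins, on the plus strand at chr2:30835222-30835252 for Prrx2-202 and chr2:30845435-30845681 for Prrx2-201, each with its start codon at the 5′ end.
Prrx2-202: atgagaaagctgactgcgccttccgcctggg
Prrx2-201: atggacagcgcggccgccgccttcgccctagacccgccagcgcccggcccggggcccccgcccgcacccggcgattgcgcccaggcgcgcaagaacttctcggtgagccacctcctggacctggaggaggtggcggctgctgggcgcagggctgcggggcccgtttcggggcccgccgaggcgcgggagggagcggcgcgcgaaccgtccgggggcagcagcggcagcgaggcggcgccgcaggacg

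**Figure D4:**
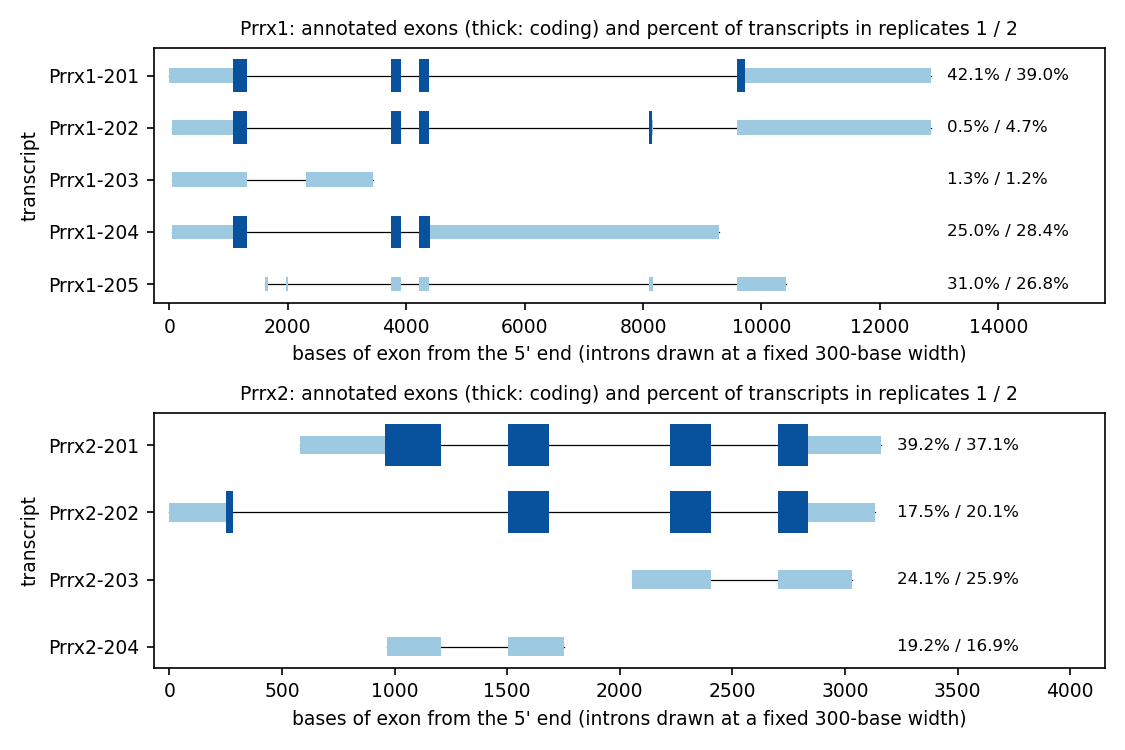
Annotated exons of the Prrx1 and Prrx2 transcripts to scale in bases from the 5′ end, with introns at a fixed width, coding parts thick, and the percent of the gene's transcripts in replicates 1 and 2 at the right. Prrx1-205 has no coding part and holds 31.0% and 26.8%, and Prrx2-203 and Prrx2-204 are short and hold 43.3% and 42.7% together.

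Shox2 was led by Shox2-203, at 78.1% and 72.2% (16.5 and 17.1 TPM), a model whose coding part is marked as incomplete at its 5′ end. The full-length Shox2-201, with 993 coding bases, held 13.97% and 12.73% (2.95 and 3.01 TPM). It holds 36 bases at the start of its last exon (chr3:66973908-66973943, minus strand) that the other 4 models skip. The models also differ in their ends and lengths, with 3079 bases in Shox2-201 and 2645 in Shox2-203.
Shox2-201: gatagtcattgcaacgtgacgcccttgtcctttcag

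Models that skip these 36 bases held 86.0% and 87.3% of Shox2. The short models rested on few counts. Shox2-204 held 5.48% and 5.87% on 28.1 and 35.1 counts, and Shox2-205 0% and 9.22% on 0 and 17.7 counts, with credibility bounds of up to 1.65 TPM in replicate 1 and from 0.466 to 4.99 TPM in replicate 2.

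The remaining genes each had 1 main coding product. Msx1-201 held 95.7% and 95.5% of Msx1 and Msx2-201 99.5% and 99.4% of Msx2, with retained-intron models as the rest. Alx1-201 held 90.2% and 90.8% and Alx1-203 9.22% and 8.92%, and these 2 share the same 978 coding bases, so this product held 99.5% and 99.8% of Alx1. Alx4-201, with 1197 coding bases, held 96.1% and 97.4%. Pitx1-201 held 90.3% and 91.3% (33.9 and 32.9 TPM). Pitx1-202, which starts 4767 bases upstream and is marked as incomplete at its 3′ end, held 9.72% and 8.75%, on 2.43% and 2.17% of the gene's counts.

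**Figure D5:**
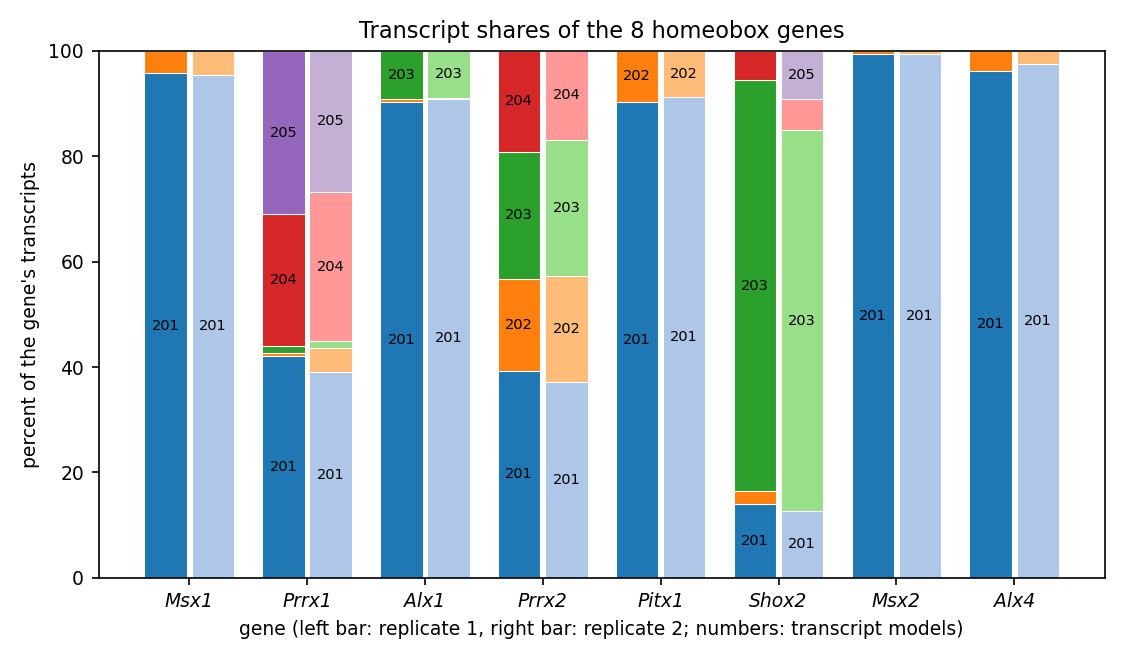
Percent of each gene's transcripts by transcript model, stacked, with replicate 1 at the left and replicate 2 at the right of each pair of bars. The Msx, Alx and Pitx1 bars are mostly 1 model, and those of Prrx1 and Prrx2 hold several.

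Overlapping genes could share reads with some of the 8, and how the counting treated strand is not given in the sources used here. Within 100-base windows of exon sequence, Alx1 shared 144 of 5998 windows with the noncoding gene Gm17028 on the same strand, at 1.95 and 2.44 TPM. Pitx1 shared 11 of 2556 windows with Gm28760 on the same strand, at 1.33 and 0.65 TPM, and 66 with the antisense gene Gm47071, which was not analysed here. Shox2 shared 54 of 3304 windows with Rsrc1, a gene linked to splicing on the opposite strand at 30.4 and 30.8 TPM, a level above that of Shox2. Msx1, Msx2, Alx4, Prrx1 and Prrx2 shared none with any other gene.

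Other neighbours overlapped only in span. Ext2, which encodes a heparan sulphate polymerase and faces Alx4, read 101 and 104 TPM, so the lowest of the 8 genes overlaps one of the higher genes of the tissue. Inside the Prrx1 span lay the antisense gene Gm20471 at 4.70 and 3.99 TPM, the model Gm37644 at 1.83 and 1.88 TPM and the noncoding gene Gm26523 at 16.2 and 24.9 TPM. Asb6, 4639 bases from Prrx2, read 30.3 and 29.6 TPM. Msx1 and Msx2 had no annotated gene overlapping them or within 5 kb.

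BMP signalling, which the Msx genes answer, was represented at each step in these libraries. All 5 BMP ligand genes listed passed 1 TPM in both libraries, with Bmp7 highest at 29.7 and 35.8 TPM and Bmp4, the ligand best known for inducing Msx1 in tooth and palate, at 26.9 and 29.0 TPM. All 4 receptor genes were detected, Bmpr1a highest at 40.9 and 42.3 TPM. Of 4 Smad effector genes 3 were detected, Smad1 highest at 42.8 and 45.4 TPM, while Smad9 read 0.98 and 0.94 TPM. Of 8 inhibitor genes 7 were detected, led by Fst, which encodes follistatin, at 30.9 and 29.7 TPM, and Grem1 read 0.91 and 1.19 TPM. All 4 Id genes, direct targets of BMP signalling, were detected, led by Id3 at 348 and 347 TPM. At 145 and 158 TPM, Msx1 stood above every listed ligand, receptor, effector and inhibitor, above Id1 and Id4, and below Id3 and Id2, the latter at 227 and 223 TPM.

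Between the replicates, 4 of the 5 ligand genes, 2 of 4 receptor genes, 1 of 4 effector genes, 4 of 8 inhibitor genes and 2 of 4 Id genes had a log2 ratio above 0, against 50.1% of all genes. Bmp7 stood at 0.29 and Bmp4 at 0.06.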

How the data were processed

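Total RNA of facial prominence was measured in 2 libraries of 1 group, each from 10 ng of RNA over 200 nucleotides long. Reads were aligned to the transcriptome of assembly mm10 with annotation M4, per a text note deposited beside the tables. Which aligner and quantification program were used, and whether strand entered, is not given in the sources used here. Per the file headers the authors deposited an expected count, TPM and posterior mean TPM for each gene and transcript, and each transcript's percent of its gene. The deposited credibility bounds of TPM, whose level is not stated, were recorded as a score because they sum to no fixed total.

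Expected counts summed to 37128010 and 38543623, of which 36048494 and 36774513 lay on genes. Spike-ins and numbered sequences stayed out of the comparisons, and GENCODE M21 named 42462 of 43346 genes and gave the coordinates on GRCm38, which is mm10. All 25 deposited transcripts of the 8 genes had the same length in M21, which has 30 for these genes. Drgx was matched to Prrxl1 by a RefSeq synonym.

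The design was kept to descriptions: 1 group gives no contrast between groups, no test between genes was run over the 2 libraries, and p-values are not given. Ratios came from rounded expected counts, with TMM in edgeR 4.0.16 (R 4.3.3), a prior count of 2 and at least 10 counts in both libraries, with exact Clopper-Pearson intervals at 95% that cover counting error only. The log2 ratio was tested on simulated counts with sampling noise alone, scaled by total counts. TMM scaling and the intervals were not part of that test. Counts of the replicates differed far beyond sampling noise (chi-square of 13.4 per gene over 18925 genes), so they were not copies of 1 library. DESeq2 1.42.0 gave other size factors, and sequences were read with Python 3.11.15 from the M21 transcripts.

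The 8 genes and all lists were chosen with earlier results of these data known. Named were the 8 genes, their transcripts at 5% or more in either library, listed relatives at 1 TPM or more in both, the highest gene of each BMP and marker list with Bmp4, the 10 highest homeobox genes, and annotated genes that overlap the 8 or lie within 5 kb. Other genes and transcripts are named for a zero, a value near the threshold or a shared exon, after their values were seen. A few genes that this rule names and 1 sequence are not reported here. Likeness of pattern was not computed, since 2 libraries of 1 group hold no pattern.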

Additional observations from a re-analysis of the deposited data

How the results depend on the processing

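No paired analysis was possible because the 2 libraries belong to 1 group, which leaves no groups to pair by replicate number. Rescaled to mouse genes alone, without spike-ins and numbered sequences, TPM gave a median level of 56.3 TPM for the 8 genes against 51.6 TPM as deposited. Scaled to spike-ins, 3 of the 8 genes passed 1.5-fold between replicates, against none under TMM, DESeq2 size factors, total counts, a prior count of 0.5 or no filter on low counts. With 1 replicate left out at a time, only the other library remains, so the values repeat its own and are no separate check. The median level lay between 50.1 and 53.1 TPM, and the log2 ratio between 3.13 and 3.23 for Msx1 over Msx2. That ratio lay between 2.51 and 2.72 for Alx1 over Alx4 and between 0.29 and 0.34 for Prrx1 over Prrx2. Under the alternatives run for each, including posterior mean TPM, all 8 genes were detected, their order was the same, 4 were among the 10 highest homeobox genes and 6 had a leading transcript at 50% or more. The posterior mean put the extra exon of Prrx1 at 32.5% and 30.9%. The short models of Shox2 rest on few counts, and every SD rests on 2 libraries.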

Other observations

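Over the homeobox list, 127 genes had 10 or more counts in both libraries, 62 of them had a log2 ratio above 0 and the median was -0.01. Of these, 16 passed 1.5-fold, none of them among the 8 genes described, where 9.08% of all 18318 genes did. Counts were not matched in this comparison. The list reached down to Phox2a at 10 and 11 counts, while Msx2, the lowest of the 8, had 899 and 1088. Uncx stood at 0.99, on 188 and 392 counts. Adnp, chosen after its value was seen as the widest of the list, stood at -1.90 on 516 and 143 counts.

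The noncoding gene Gm26523, which lies within the span of Prrx1 on the same strand (chr1:163301790-163303620) and shares no 100-base window with its exons, had 621 and 996 counts and a log2 ratio of 0.62, where Prrx1 stood at 0.20. The antisense gene Gm20471 in the same span stood at -0.23 on 61 and 54 counts.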
